A study of Mus musculus with 2 samples.

Results

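Plasma cells are the antibody-secreting end state of B lymphocytes, and 10 genes that mark them or serve their secretory work were followed here in RNA-seq of whole omentum. The members were set by gene symbol, with no rule on their values, but with earlier results of these data known. They were Jchain, Xbp1, Mzb1, Sdc1, Prdm1, Irf4, Tnfrsf17, Derl3, Fkbp11 and Ell2, and all 10 were found among the 24346 gene symbols listed. There was 1 library for each genotype, WT and Postn-DTR, both from omentum 5 days after diphtheria toxin (DT), so the WT mice had received the toxin too. Postn-DTR mice are heterozygotes, made in C57BL/6 zygotes, with a diphtheria toxin receptor (DTR) placed in the first coding exon of 1 Postn allele. DT therefore kills cells that use the Postn promoter, which in the omentum include Aldh1a2+ fibroblastic reticular cells (FRCs), but Postn is also used by mesenchymal cells of other organs. Whether a library held 1 mouse or a pool, and the age of the mice, are not given in the sources used here.

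In a plasma cell the factors IRF4 and BLIMP-1 (encoded by Prdm1) shut down the B cell program, and XBP1 enlarges the endoplasmic reticulum (ER), where antibody chains are folded and assembled. J chain joins the units of polymeric IgM and IgA. The omentum and peritoneal cavity are known for B1 B cells, which give rise to cells that secrete natural IgM without immunization.

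Levels are FPKM as the authors deposited them, that is, fragments scaled by transcript length and by library depth. Because each genotype has 1 library, the spread between replicates is unknown, no test or p-value could be given, and none of the differences is checked by a replicate. The fold of a gene is the ratio of its deposited FPKM, Postn-DTR over WT. The change is log2(FPKM + 1) of Postn-DTR less that of WT, a scale that shrinks differences at low FPKM. It was read for the 13127 genes whose mean FPKM reached 1. Higher and lower give the sign of the change, and a gene was counted past 2-fold when its change was at least 1 in size, so a plain fold just above 2 can fall short of it. Depth estimated from the steps of low FPKM values was about 23200000 fragments in WT and 24300000 in Postn-DTR. Postn, the targeted gene, was at 58.3 FPKM in WT and 16.2 in Postn-DTR, the direction its label implies. Acinar genes of the pancreas, which adjoins the omentum, made up 2.27% of all FPKM in WT and 0.00304% in Postn-DTR.

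All 10 plasma cell genes had a higher FPKM in the Postn-DTR library than in the WT library, with folds from 1.21 to 3.08 and a median of 1.96. Of the 13127 genes compared, 51.9% were higher by any amount. Irf4, Fkbp11 and Mzb1 passed 2-fold, which is 3 of 10 members where 3.88% of all genes did so. None of the 10 was at least 2-fold lower, against 3.12% of all genes. The median change of the members was 0.91, and that of all genes compared was 0.02. Derl3 and Xbp1 lay just short of 2-fold, with changes of 0.99 and 0.98. The direction was the same in every scaling tried for 9 members, and Prdm1 alone turned, to -0.059, once totals were made equal after leaving out acinar genes. Mzb1, at 0.97, was no longer past 2-fold in that scaling, which left 2 of 10 members. There the median change was 0.59 for the members and -0.28 for all genes, and higher genes made up 27.9% of those past 2-fold in place of 55.4%. In whole tissue, more cells of a type and more RNA per cell cannot be told apart.

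**Figure D1:**
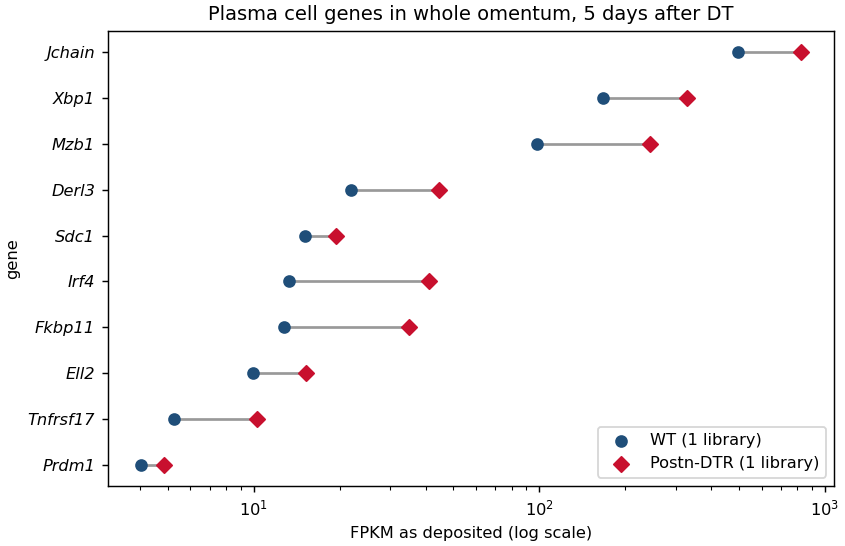
FPKM of the 10 plasma cell genes (rows) on a log scale in the WT library (circles) and the Postn-DTR library (diamonds), with a line joining the values of each gene and no error bars because there is 1 library per genotype. The Postn-DTR value lies to the right of the WT value for every gene, and the longest line is that of Irf4 (13.3 and 41.0).

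The factors that direct the plasma cell program differed among themselves. Irf4 (chromosome 13, 30749226 to 30766976, plus strand, GRCm38) encodes a lymphocyte transcription factor whose high level commits B cells to secretion. Its FPKM was 13.3 in WT and 41.0 in Postn-DTR, a fold of 3.08. This change of 1.55 was the largest of the members and ranked 209 among the 13127 genes. Xbp1 (ENSMUSG00000020484, chromosome 11, 5520659 to 5525893, plus strand) was at 167 FPKM in WT and 330.0 in Postn-DTR, a fold of 1.98. Prdm1 (chromosome 10, 44437177 to 44528501, minus strand), which acts with Irf4 in this program, had the lowest level of the 10 genes in both libraries, at 4.02 FPKM and 4.85. Its fold of 1.21 was also the smallest. Irf4 and Prdm1 thus sat at opposite ends of the member changes. Ell2 (chromosome 13, 75706757 to 75772364, plus strand) encodes an elongation factor that favours the secreted over the membrane form of immunoglobulin heavy chain transcripts. Its FPKM was 9.92 in WT and 15.2 in Postn-DTR, a fold of 1.53. Exons of Ell2 overlap 1700037F03Rik on the opposite strand and Gm23127 on the same strand. The strand setting of the counting is not given, so reads may have been shared with either gene.

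The Xbp1 transcript is itself a switch. Under ER load the enzyme IRE1 cuts a short stretch out of the mRNA, and the shortened message encodes the active factor. IRE1 cuts hairpin loops of the form CNGCNGN. GENCODE transcript Xbp1-201 was searched for a pair of such loops, each on a stem of at least 5 base pairs, that enclose 26 bases. The length of 26 was set in the search, and of 23 matches to the loop form a single pair met these terms. The enclosed stretch lies in exon 4 at chr11:5524279-5524304 on the plus strand of GRCm38. It is printed with the 26 enclosed bases in capitals and 20 bases on each side.
Xbp1 site: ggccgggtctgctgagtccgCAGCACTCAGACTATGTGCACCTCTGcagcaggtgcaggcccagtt
One FPKM per gene counts the cut and the uncut message together, so the value of Xbp1 gives its total mRNA and not the share of the active form.

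The members of immunoglobulin assembly are Jchain, the most abundant of the 10 genes in both libraries, and Mzb1. Jchain (ENSMUSG00000067149, chromosome 5, 88519809 to 88527891, minus strand), which encodes the J chain, was at 498 FPKM in WT and 825 in Postn-DTR, a fold of 1.66. It ranked 164 by level among all gene symbols in WT and 132 in Postn-DTR. It made up 58.9% of the summed FPKM of the 10 genes in WT and 52.6% in Postn-DTR. Mzb1 encodes an ER cochaperone that helps assemble and secrete IgM in B1 B cells, marginal zone B cells and plasma cells. Its FPKM was 97.8 in WT and 244 in Postn-DTR, a fold of 2.49, and its rank by level went from 822 to 361. An exon of Mzb1 overlaps an annotated transcript of a neighbouring gene on the same strand, so its reads may be shared with that gene. Without Jchain, the other members summed to 347 FPKM in WT and 744 in Postn-DTR.

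The secretory genes of the ER had plain folds above 2. Derl3 (chromosome 10, 75893413 to 75895941, plus strand), a derlin, helps pull misfolded proteins out of the ER for degradation. It was at 21.9 FPKM in WT and 44.5 in Postn-DTR, a fold of 2.03. Fkbp11 (chromosome 15, 98724366 to 98728198, minus strand) encodes a peptidyl-prolyl isomerase of the ER that is abundant in secretory cells. Its FPKM was 12.8 in WT and 35.0 in Postn-DTR, which made 2.74 the second fold among the members after that of Irf4. Both genes, and Xbp1, are also abundant in pancreatic acinar cells. All 23 acinar genes compared were at least 2-fold lower in Postn-DTR, and of the 25 listed the WT library had 1 at 0 and the Postn-DTR library 7, so Derl3, Fkbp11 and Xbp1 were higher in the library with the lower acinar signal. The part of acinar cells in these values was not tested.

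The surface molecules lay apart from each other. Tnfrsf17 (chromosome 16, 11313812 to 11320074, plus strand) encodes BCMA, a receptor for APRIL and BAFF that keeps long-lived plasma cells alive. It was at 5.28 FPKM in WT and 10.3 in Postn-DTR, a fold of 1.95. It rested on the fewest fragments of the members, an estimated 76.5 in WT and 151 in Postn-DTR. These estimates depend on the annotated transcript length. Sdc1 (chromosome 12, 8771323 to 8793715, plus strand) encodes syndecan-1 (CD138), a heparan sulfate proteoglycan used to sort plasma cells and also made by epithelial cells. Its FPKM was 15.1 in WT and 19.3 in Postn-DTR, a fold of 1.28, and its change fell to 0.015 at equal totals without the acinar genes. The 3 epithelial genes compared were higher too, with Krt18 at 10.5 and 17.2 FPKM and Epcam at 1.20 and 2.61. Cdh1, also on the epithelial list, lay under the expression minimum at 0.163 and 0.148 FPKM.

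For 6 members (Derl3, Fkbp11, Irf4, Tnfrsf17, Ell2 and Sdc1) the other genes of the family were read too, most of which are not restricted to plasma cells. Derl3 had a change of 0.99, whereas Derl1 (74.6 and 70.6 FPKM) had -0.079 and Derl2 (14.2 and 13.7) had -0.046. Of the 6 FKBP genes of the ER, Fkbp11 was the single gene past 2-fold, and the next change was 0.37 for Fkbp2 (114 and 148 FPKM). Among 8 interferon regulatory factors compared, Irf4 alone passed 2-fold. Irf7 followed at 38.0 and 50.2 FPKM, and Irf8, which is high in B cells and myeloid cells, was lower at 51.1 and 35.2. In each of these families the plasma cell member had the largest change. The receptors of BAFF and APRIL also moved apart. Tnfrsf13c, the BAFF receptor of mature B cells, had a change of -0.45, and Tnfrsf13b (TACI), at 11.9 and 10.3 FPKM, one of -0.19. In the remaining families the plasma cell member did not lead. Ell (18.1 and 37.6 FPKM) had a larger change than Ell2, at 1.01, though it was under 2-fold in each of the 3 other scalings. Sdc4 (81.2 and 152) and Sdc3 (84.8 and 156) had larger changes than Sdc1.

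**Figure D2:**
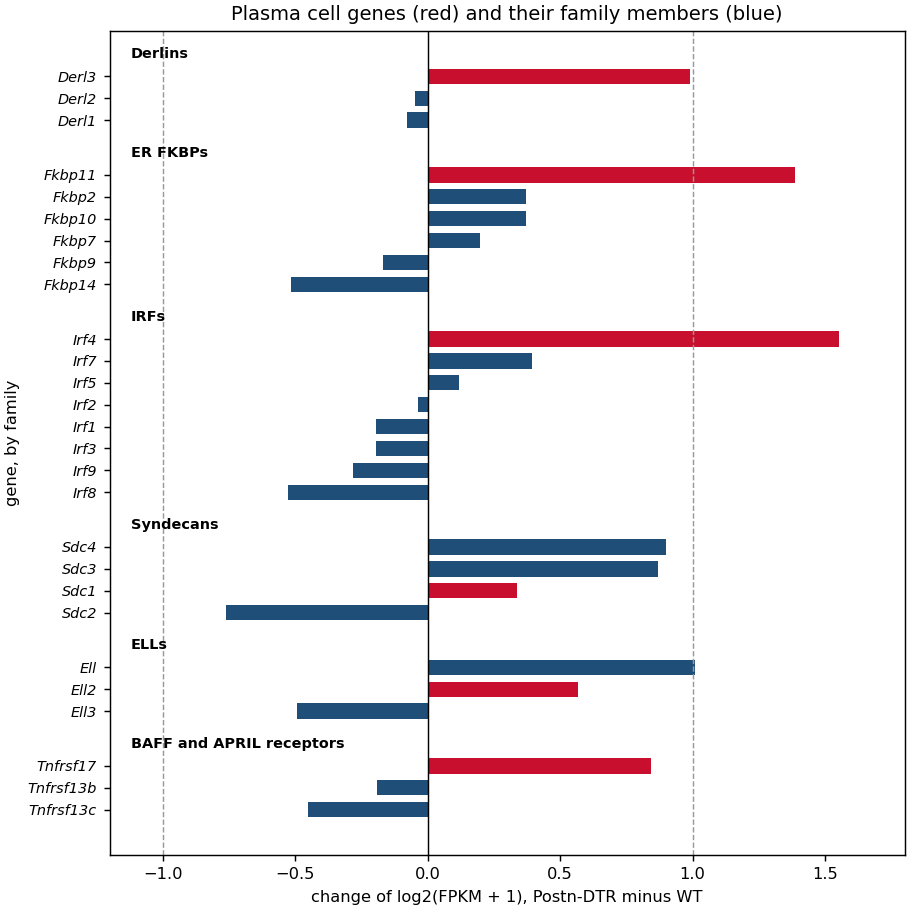
Change of log2(FPKM + 1), Postn-DTR less WT, for the plasma cell genes (red bars) and the other genes of their families (blue bars), with dashed lines at 2-fold and no error bars because there is 1 library per genotype. Derl3, Fkbp11, Irf4 and Tnfrsf17 have the highest bar of their family, and Sdc1 and Ell2 do not.

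To set antibody-secreting cells beside B cells, 14 B cell identity and signalling genes were read in the same way. Of these 12 were lower in Postn-DTR, 6 of them by at least 2-fold, and their median change was -0.87. Cd79a, a signalling chain of the B cell receptor that is made throughout the lineage, was at 191 FPKM in WT and 170 in Postn-DTR. Fcer2a, the CD23 antigen of recirculating B cells, was at 30.5 and 3.10. The exceptions were Blnk (23.8 and 27.0) and Cd37 (141 and 158), which turned lower at equal totals without the acinar genes. The highest B cell change, 0.18 for Blnk, lay close to the lowest member change, 0.22 for Prdm1, which was 0.13 with a pseudocount of 5. The summed FPKM of the 10 members was 1.09 times that of the B cell genes in WT and 2.68 times in Postn-DTR.

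A ratio of genes within a library does not depend on how the libraries were scaled to each other. Relative to Cd79a, all 10 members were higher in Postn-DTR, by 1.36-fold to 3.46-fold. Jchain was at 2.61 times the FPKM of Cd79a in WT and 4.87 times in Postn-DTR, and Mzb1 was at 0.512 and 1.44 times. Against Ms4a1, the CD20 antigen that plasma cells lose, the members were higher by 2.90-fold to 7.41-fold. Against Pou2af1, a coactivator of immunoglobulin transcription that plasma cells keep, 7 of 10 were higher and Prdm1, Sdc1 and Ell2 were not. The folds against Pou2af1 lay between 0.759 and 1.94, with Jchain at 1.04.

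**Figure D3:**
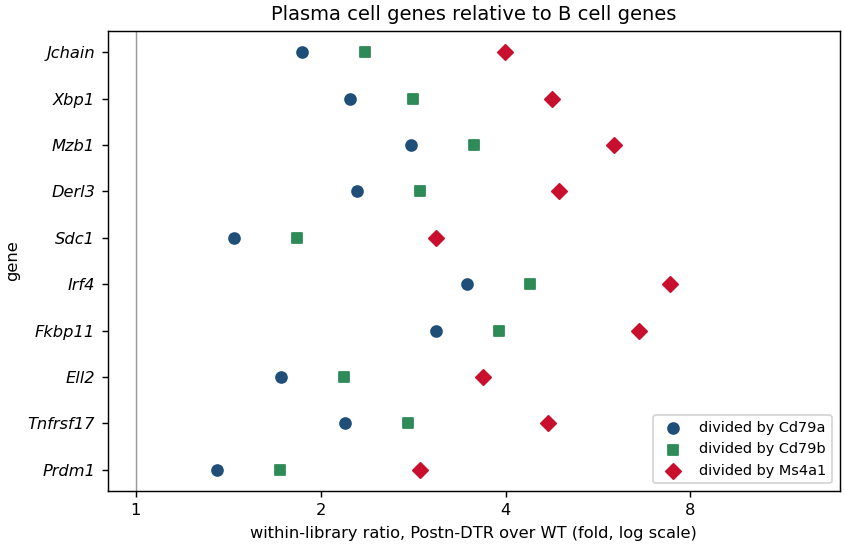
Ratio of each plasma cell gene (rows) to Cd79a, Cd79b or Ms4a1 in the Postn-DTR library divided by the same ratio in the WT library, on a log scale, with 1 library per genotype and no error bars. Every point lies above 1, from 1.36 for Prdm1 against Cd79a to 7.41 for Irf4 against Ms4a1.

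The listed B cell transcription factors were lower in 7 of 8 cases, with a median change of -0.48. Ciita, the master factor of MHC class II genes, was at 15.6 FPKM in WT and 3.75 in Postn-DTR, and Spib was at 44.3 and 19.0. Both were at least 2-fold lower. Pax5, which fixes the B cell fate, was at 14.3 and 9.07 FPKM, and Bach2, which delays plasma cell formation, was at 2.23 and 1.52. Bcl6, the germinal center factor, was at 13.6 and 13.3. Id3 was the exception at 184 and 220.0 FPKM, and it too was lower at equal totals without the acinar genes. Irf4 was higher and Pax5 and Spib were lower in the same library, while the change of Prdm1 ranked 3882 among the 13127 genes. Whether these values come from the same cells was not tested. B1 B cell genes, 4 in number, were lower without exception, and their median change was -0.58. They were Bhlhe41 (3.24 and 2.85 FPKM), Spn (16.0 and 10.6), Zbtb32 (9.27 and 5.70) and Cd5 (7.65 and 2.42), which T cells also express. Cd5 alone was at least 2-fold lower, and it is also on the T cell list, where all 13 genes were lower. By contrast, the paper reports an unaltered number of omental B1 B cells at the same time after DT. In its single-cell data the proportions of B1a and B1b B cells moved opposite to the reduced proportion of B2 B cells. Whether the values of these genes follow B1 B cell number, and which cells gave them, was not tested.

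Another 18 genes that are high in antibody-secreting cells were more mixed than the 10 members. Of these 12 were higher and 6 lower, with 5 and 1 past 2-fold and a median change of 0.54. Those past 2-fold on the higher side were Trp53inp1 (16.0 and 55.5 FPKM), Cd38 (25.4 and 59.3), Tent5c, listed as Fam46c (9.98 and 23.7), Eaf2 (2.52 and 6.92) and Sec11c (84.3 and 172). Tent5c encodes a poly(A) polymerase that stabilizes immunoglobulin mRNA, Eaf2 binds ELL factors, and Sec11c is a catalytic subunit of the signal peptidase. Pou2af1 was at 44.2 and 70.2 FPKM. At equal totals without the acinar genes, 1 gene of the 18 remained past 2-fold on the higher side. The lower genes included surface molecules that T cells or NK cells also carry, and the higher genes are not restricted to antibody-secreting cells either. Cd27 was at 5.53 and 1.69 FPKM, Cd28 at 2.33 and 1.14 and Slamf7 at 7.65 and 4.96. Ccr10, a homing receptor of IgA plasma cells, was at 1.78 and 0.681. Pim2 (8.66 and 7.31 FPKM) and Glcci1 (5.81 and 3.83) were lower as well. Which cells gave the values of the higher or of the lower genes was not tested. Bhlha15, a secretory cell factor shared by plasma cells and acinar cells, was at 3.83 and 4.63 FPKM, with a direction that turned at equal totals without the acinar genes. Of 12 immunoglobulin chain genes on the list, Igll1 was listed at 0 in WT and 0.248 in Postn-DTR. The other 11 were not analysed here, so the level of the antibody transcripts themselves was not read.

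**Figure D4:**
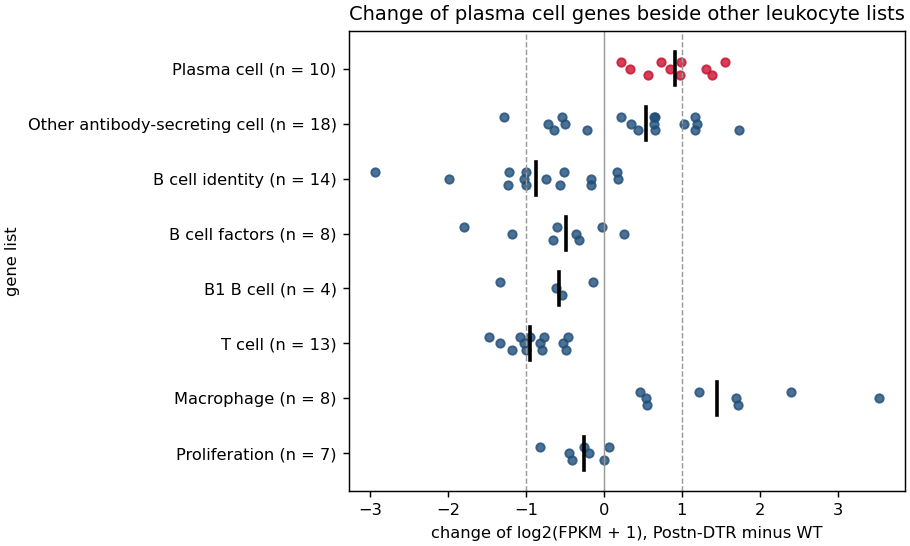
Change of log2(FPKM + 1), Postn-DTR less WT, of single genes (points) in the plasma cell list (red) and in other leukocyte lists (blue), with black bars at list medians, dashed lines at 2-fold and 1 library per genotype. The plasma cell points lie between 0.22 and 1.55, and those of the B cell identity list reach 0.18.

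The machinery that plasma cells expand was examined in 4 ER lists, 3 genes of which are also among the 18 above. Of 17 genes of protein import into the ER, 15 were higher and 2 of them passed 2-fold, with a median change of 0.38. Those past 2-fold were Ssr4 (144 and 308 FPKM), a subunit of the translocon-associated complex, and Sec11c, and at equal totals without the acinar genes 9 of 17 were higher and neither passed 2-fold, nor did they at an equal 75th percentile. ER chaperones and disulfide isomerases changed less. Their median was 0.12 over 18 genes, with 0 past 2-fold in either direction, and it turned to -0.21 at equal totals without the acinar genes. Hspa5, the main ER chaperone, was at 332 and 359 FPKM, and Hsp90b1, the partner of MZB1, was at 396 and 405, both with a direction that turned in the same setting. Txndc5, an isomerase abundant in plasma cells, was at 177 and 279. Of 10 genes of ER-associated degradation 7 were higher, with a median of 0.28 and none past 2-fold. Among the stress sensors and factors, Ern1, which encodes the IRE1 that cuts Xbp1, was at 5.73 and 9.64 FPKM, and the stress factor Ddit3 was at 23.6 and 27.8, the latter turning lower at equal totals without the acinar genes. The member median of 0.91 was above the median of each ER list, and whether the lists differ was not tested. Acinar genes made up 2.27% of all FPKM in WT and 0.00304% in Postn-DTR. The setting without the acinar genes left out only the listed ones, so any acinar part of the ER list values stayed in it. That part was not tested.

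**Figure D5:**
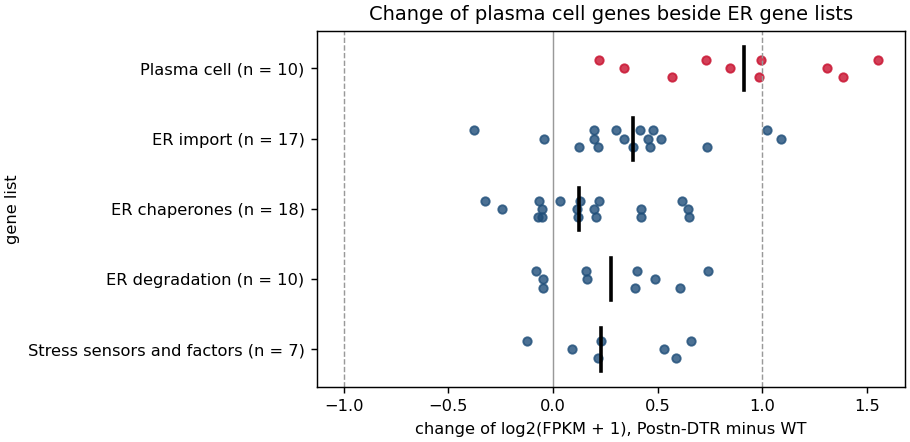
Change of log2(FPKM + 1), Postn-DTR less WT, of the plasma cell genes (red points) and of 4 lists of ER genes (blue points), with black bars at list medians, dashed lines at 2-fold and 1 library per genotype. The medians are 0.91 for the plasma cell genes, 0.38 for ER import, 0.12 for chaperones, 0.28 for degradation and 0.23 for stress sensors and factors.

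Because several members were higher together, the sequence before their start sites was searched for elements read by the ER stress response. RefSeq promoters on GRCm38.p6, from 250 bases before the start to 50 after it, were found for 9 of the 10 members, as 10 promoters since Fkbp11 has 2. Mzb1 was not matched. CCACG, searched on both strands, was in 5 of these 10 promoters and in 32.8% of the 32851 promoters in the table. CCAAT was in 5 of 10 and in 37.4% of all. The complete ER stress element, CCAAT and CCACG separated by 9 bases, is bound by ATF6 and NF-Y and was searched after the single motifs had been seen. It was in the promoter of Derl3 alone among the members and in 0.119% of all promoters. CAGCTG, an E-box bound by the Bhlha15 product, was in 1 member promoter, that of Ell2, and in 16.3% of all. TGACGTGG, an XBP1 element, was in 0 of 10 and in 0.676%. The 250 bases before the start are printed for Derl3, which holds the complete element, and for Irf4, the more downstream start of Fkbp11 and Jchain, as the member with the largest fold, another secretory gene and the most abundant member. Capitals mark CCACG and CCAAT, or CGTGG and ATTGG where they lie on the other strand.
Derl3, chr10:75893148-75893397, plus strand: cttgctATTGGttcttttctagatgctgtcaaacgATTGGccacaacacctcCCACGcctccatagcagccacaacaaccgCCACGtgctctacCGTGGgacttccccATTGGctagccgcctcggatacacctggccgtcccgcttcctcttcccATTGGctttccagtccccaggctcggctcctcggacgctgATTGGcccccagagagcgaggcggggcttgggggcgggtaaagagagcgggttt
Irf4, chr13:30748983-30749232, plus strand: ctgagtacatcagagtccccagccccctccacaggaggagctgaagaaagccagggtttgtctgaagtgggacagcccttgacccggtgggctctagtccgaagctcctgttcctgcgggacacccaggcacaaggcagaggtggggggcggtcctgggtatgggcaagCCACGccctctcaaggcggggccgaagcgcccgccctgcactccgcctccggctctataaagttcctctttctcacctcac
Fkbp11, chr15:98727628-98727877, minus strand: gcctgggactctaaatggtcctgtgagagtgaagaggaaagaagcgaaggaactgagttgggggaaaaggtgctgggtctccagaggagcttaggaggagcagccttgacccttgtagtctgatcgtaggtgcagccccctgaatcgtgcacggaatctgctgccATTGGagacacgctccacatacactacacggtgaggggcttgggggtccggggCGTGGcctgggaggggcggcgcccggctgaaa
Jchain, chr5:88527898-88528147, minus strand: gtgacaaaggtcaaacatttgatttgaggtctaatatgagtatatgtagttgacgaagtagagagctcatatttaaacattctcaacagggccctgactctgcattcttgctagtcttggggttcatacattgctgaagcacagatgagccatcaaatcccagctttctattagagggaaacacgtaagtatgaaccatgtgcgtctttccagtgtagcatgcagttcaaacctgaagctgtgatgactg
In Derl3 the complete element lay on the opposite strand from 156 to 138 bases before the start, with 2 more CCACG and 4 more CCAAT in the same stretch. Irf4 held a single CCACG from 81 to 77 bases before its start, Fkbp11 held 1 CCACG and 1 CCAAT on the opposite strand, and Jchain held neither motif. A complete element was present in 37 genes of the promoter table, of which 17 were compared. Of these, 7 were higher and none passed 2-fold, with a median change of -0.048 against 0.023 for all 9953 genes with a promoter that were compared. They included Hspa5, Hsp90b1, Calr (598 and 477 FPKM) and Creld2 (58.0 and 91.4). A match is a description of the letters and not of binding.

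Markers of other cells that use some of these genes moved between the libraries as well. The 8 macrophage genes were all higher, 5 of them by at least 2-fold, and they summed to 2973 FPKM in WT and 5567 in Postn-DTR. Irf4 and Prdm1 are also expressed by macrophages. The 13 T cell genes, whose cells use Irf4 and Prdm1 too, were all lower, summing to 135 and 64.1 FPKM. The 10 adipocyte genes summed to 15200.0 and 14608, with 7 lower, 2 of them by at least 2-fold, and a median change of -0.48. Mesothelial genes, 5 in number, summed to 468 and 474, with 3 higher and 2 lower, 1 of the lower by at least 2-fold. None of these markers was listed at 0 in either library. The part of each cell type in the member values was not tested.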

How the data were processed

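RNA of whole omentum was sequenced in 2 libraries, 1 per genotype, grouped by their genotype label. The labels name a miRNeasy kit for total RNA and a TruSeq stranded mRNA kit for the libraries. The authors deposited FPKM, 1 value per gene symbol and library. The submitters' processing notes name TopHat2 2.1.1, Bowtie2 2.2.8, SAMtools 0.1.18, Cuffdiff 2.2.1 and build mm10, with no role, annotation or scaling mode. The sum of FPKM was lower for WT (542190) than for Postn-DTR (671882), so 3 other scalings were compared.

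From these values the change of log2(FPKM + 1) was computed with Python 3.11.15, pandas 2.3.3 and NumPy 2.4.6, for genes whose mean FPKM reached 1. The code was tested on simulated data. The members and the 25 other lists were chosen with earlier results of these data known. Named genes are the members and list genes. Postn was named for the label check, and the single values of 1 B cell gene are not reported here. In all 2 list genes were found under an older symbol. Positions came from GENCODE M21 on GRCm38, the assembly of mm10, which may not be the annotation the authors used.

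For depth, 723 genes had an FPKM above 0 and under 0.1 in both libraries, and 174 of them shared a Postn-DTR to WT ratio of 0.967, which put Postn-DTR at 1.03 times the depth of WT. The depth and a length reduction (190 bases in WT, 210 in Postn-DTR) were chosen so that as many low values as possible, over genes with 1 annotated transcript, were whole reads within 0.05, which 70.2% were in WT and 70.4% in Postn-DTR. These shares come from the data that set the depth, which is an estimate, and replicates are missing, so precision beyond counting is unknown. Alternatives were other pseudocounts, expression minimums, thresholds and scalings.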

Additional observations from a re-analysis of the deposited data

How the results depend on the processing

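Every member compared was higher in Postn-DTR under the 7 settings tried for direction except at equal totals without the acinar genes, where 1 member was lower, Prdm1 at -0.059. A minimum mean FPKM of 10 left 8 members, without Prdm1 and Tnfrsf17. At equal totals without the acinar genes the median change of all genes moved from 0.02 to -0.28. There the share of higher genes among those past 2-fold moved from 55.4% to 27.9%, so a change of that size cannot be separated from scaling. The median change of the members was 0.97 with a pseudocount of 0.1, 0.80 with 5, 0.99 for those 8 members, 0.90 after centring, 0.82 at an equal 75th percentile and 0.59 at equal totals without the acinar genes. Of the members 7 were higher at 1.5-fold and 0 at 3-fold, in place of 3. Of the 13127 genes compared, 1294 and 199 were, in place of 509. Past 2-fold there were 2 members at equal totals without the acinar genes, where Mzb1 was lost. With a pseudocount of 0.1 there were 4, where Derl3 was added. Over all genes, the 410 lower became 643 and 168 with pseudocounts of 0.1 and 5, 173 with a minimum mean FPKM of 10, 792 at equal totals, and 1160 and 153 at 1.5-fold and 3-fold. The 509 higher became 642 and 287 with pseudocounts of 0.1 and 5, and 303 with a minimum mean FPKM of 10. They became 306 at equal totals, and 1294 and 199 at 1.5-fold and 3-fold. Stricter limits lower a count by construction.

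Of 160 alternative values of other list medians 7 turned in direction. At equal totals without the acinar genes these were the stress sensors and factors (-0.099), ER chaperones (-0.21), ER degradation (-0.045), FKBP genes of the ER (-0.053) and mesothelial genes (-0.062). With no minimum FPKM the partners and receptors of polymeric immunoglobulin turned to -0.43, and with a minimum of 10 the survival and homing factors turned to -0.34, where fewer or more genes entered the median. No paired analysis was possible because each genotype has 1 library, and no library could be left out. The lowest estimated number of fragments behind a member was 76.5, for Tnfrsf17 in WT, and counting error is widest there.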

Other observations

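Factors known to hold and feed plasma cells were read from a list of 6 genes, of which 5 passed the expression minimum. Il6, a survival cytokine of plasma cells that is also an inflammation gene, was at 0.436 FPKM in WT and 5.58 in Postn-DTR. Il10, which B1 B cells and macrophages make, was at 1.20 and 7.63. Tnfsf13, which encodes APRIL, was at 22.5 and 36.8, and Tnfsf13b, which encodes BAFF, was at 5.97 and 6.30, a change of 0.07 that turned to -0.23 at equal totals without the acinar genes and -0.022 at an equal 75th percentile. Cxcl12, the chemokine that retains plasma cells in bone marrow, went the other way, at 180.0 and 69.5 FPKM. Il5 was listed at 0.161 and 0.187, under the minimum.

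Proteins that bind polymeric IgM moved apart. Cd5l, a macrophage product that rides on J chain-linked IgM, was at 34.7 FPKM in WT and 242 in Postn-DTR, a fold of 6.97, where Jchain had 1.66. Fcmr, the IgM receptor of B cells, was at 54.4 and 21.4. Pigr, which carries J chain-linked antibodies across epithelia, was near the bottom of the scale at 0.329 and 0.228. Of the proliferation genes, which dividing plasmablasts express, 5 of 7 were lower. The list median was -0.25, with Mki67 at 6.82 and 4.75 FPKM.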
